A study of Mus musculus with 2 samples.

Results

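The 7 genes described are cysteine protease inhibitors of the cystatin family: Csta2, Stfa1, Stfa3, Cstb, Cst3, Cst6 and Cst7. They were chosen by the difference in array signal between day 3 and day 0, seen in an earlier look at these data, and by family membership. Their probes were found by the gene symbol that the array's annotation gives each probe, with older symbols updated, so that a probe annotated as 2010005H15Rik is counted as Csta2. Of the 7 genes, 5 had a probe, each of them a single probe, among 16637 named genes on the array. No probe carried the symbol of Stfa3 or Cst6, and these were not analysed here. The gene table lists Stfa3 both as a gene of its own and as an older name of Stfa1, so which of these genes the Stfa1 probe was designed for is not settled.

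Both samples came from embryonic fibroblasts of the mouse that the labels call an Xbp1 knockout. The loss of Xbp1, whose product switches on genes of the unfolded protein response, is thus shared by both groups. The day 0 sample was labelled as taken when the cells were confluent. The day 3 sample was taken after the protocol's first 72 h in a mix of insulin at 10 µg/ml, troglitazone at 5 µM, which activates the adipogenic nuclear receptor PPARγ, IBMX at 0.25 mM, which raises cAMP by blocking phosphodiesterases, and DXM at 5 µM. How the knockout line was derived, and from how many embryos or clones, was not stated in the labels, and Xbp1-positive cells were not analysed here. With a single single-dye array of total RNA for each day, the differences have no replicate check, and no test was run.

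Cystatins block papain-like cysteine proteases, chiefly the lysosomal cathepsins, by filling the active-site cleft reversibly and tightly. Stefins are the family's small members without a signal peptide and act inside the cell, the cystatins proper are secreted, and the kininogens and fetuins are large plasma proteins built with cystatin domains. In the mouse the stefin A genes form an expanded cluster and are known from neutrophils and other blood-forming cells, whereas stefin B and cystatin C are made by most cell types.

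Gene probes had a median raw intensity of 78 on day 0 against 166 on day 3, and the 95th percentile of 7402 empty spots was 7 and 9. Signals below are quantile-normalized intensities with a floor of 10, and a gene counts as detected above 122, the median of all gene probes, on at least 1 day. That threshold is well above the empty spots, so a gene below it is not shown to be silent. All 10 fibroblast markers on the array were detected, and 3 of them were 2-fold apart: Col1a1 was 2.09-fold lower on day 3 (12227.5 and 5849.5), Fn1 4.16-fold higher (3789 and 15748) and Lum 3.04-fold higher (218 and 662.5). The difference of Col1a1 was below 2-fold with no normalization (-0.64). For comparison, the 2-fold shares over all 10656 detected genes were 12.8% upward and 10.3% downward. The brightest Dcn probe was saturated on both days and could not show a difference. Vim was saturated on day 0, so its difference may be understated. Because the RNA came from whole cultures, a change in the share of cells of a type and a change in RNA per cell cannot be told apart.

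Of the 5 inhibitors with a probe, 3 were detected: Csta2, Cstb and Cst3. Of these, 1, Csta2, had a day 3 signal at least 2-fold above day 0, and 0 had a day 3 signal at least 2-fold below it. Over all 10656 detected genes the shares were 12.8% above and 10.3% below. The genes were proposed with this contrast in view, so their count is a description and nothing is read from it. The median difference of the 3 was -0.14 on the log2 scale, against 0.03 for all detected genes, and the median is that of Cst3, whose probe was saturated.

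**Figure D1:**
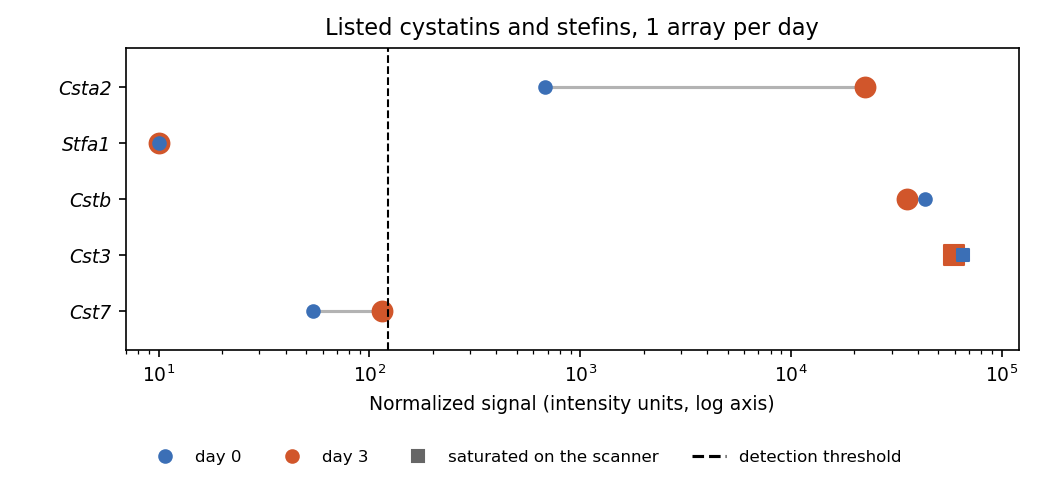
Normalized signal (x axis, intensity units on a log scale) of the 5 listed inhibitors with a probe, with 1 array for day 0 and 1 for day 3, squares for signals saturated on the scanner and a dashed line at the detection threshold of 122. Csta2 moves from 677.5 to 22478.5, Cstb and Cst3 lie close together on both days, and Stfa1 and Cst7 lie below the line.

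Csta2, a member of the stefin A group, had a normalized signal of 677.5 on day 0 and 22478.5 on day 3, from raw intensities of 534 and 25756. Day 3 was thus 33.2-fold higher, a log2 difference of 5.05. The repeat-spot SD of a difference was taken from control features printed as 5 or 6 spots. At the mean of the log2 signals of both days it was 0.42 by the median feature and 0.58 when pooled over features. In the brightness range of the day 0 signal the pooled SD was 0.74, and in that of the day 3 signal it was 0.85. These errors cover scatter between spots within an array and not variation between cultures. On day 0 the probe already exceeded 72.0% of all gene probes and on day 3 it exceeded 98.4%. Csta2 ranked at position 3 of the 10656 detected genes by difference toward day 3, after Ctla2a and Dio2, which were both below the threshold on day 0. Among the 9434 genes above the threshold on both days, 0 had a larger difference in either direction.

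The difference of Csta2 kept its direction across the ways of putting the arrays on a common scale, while its size varied. It was 4.50 under median scaling, 5.15 under cyclic loess, 5.59 with no normalization and 5.06 in the authors' deposited table (639.8 and 21298, as given there). The settings shift the median of all detected genes, by -0.49 under median scaling and 0.67 with no normalization. Relative to that median the difference of Csta2 lay between 4.92 and 5.16 in all 11 settings. The detection rules and the mean of all probes could not change its own signals, because its single probe was above the threshold on both days. Probe sequences were not analysed here, and the stefin A genes are close copies of each other, so the transcript or transcripts behind this signal are uncertain within the cluster.

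**Figure D2:**
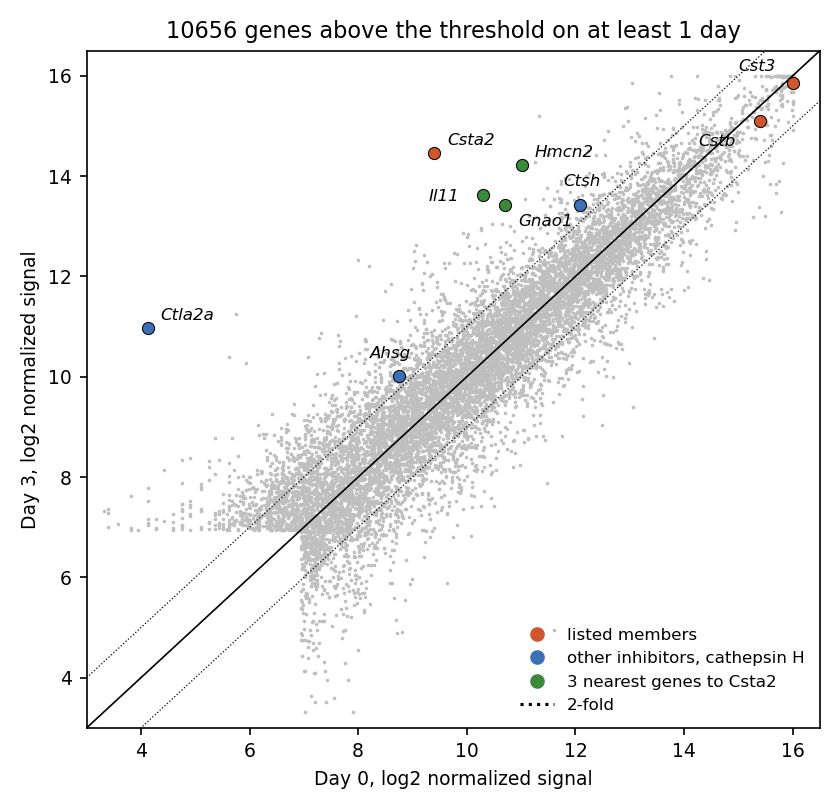
Log2 normalized signal on day 0 (x axis) against day 3 (y axis) for the 10656 genes above the threshold on at least 1 day, with dotted lines at a 2-fold difference. Csta2 lies apart from the main cloud at 9.40 and 14.46, Cstb and Cst3 lie near the diagonal, and the edge along the lower left is the detection threshold.

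Few genes on the array had a pattern like that of Csta2. The nearest in the plane of the log2 signals on both days, a measure over only 2 samples, was Il11, an IL-6 family cytokine gene, which went from 1261.5 to 12704.5 and lay 1.22 log2 units away. Hmcn2 (2061 and 18992.5) was 1.62 away and Gnao1, a G protein alpha subunit gene (1676 and 10946), 1.67 away. Their differences, from 2.71 for Gnao1 to 3.33 for Il11, were all smaller than that of Csta2.

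The sequences upstream of the stefin A genes are shown because the probes of 2 genes of one cluster, Csta2 and Stfa1, gave such unlike signals. The Stfa1 probe read no higher than empty spots on both days, so whether it can report its gene is not known. A link between the sequences and the signals was not tested. The 250 bases before the RefSeq start are shown for the 3 listed stefin A genes, read 5′ to 3′ along the gene in build GRCm38.p6. Capitals mark the CCAAT box, which appears here as ATTGG on the reverse strand, and ACCTTTAAAACCC on the forward strand, the longest run of bases that Stfa1, Stfa2, Stfa3, Stfa2l1 and Csta3 share. Of the 7 listed genes, 5 had a promoter in the RefSeq table (Csta2, Stfa1, Stfa3, Cst3 and Cst7). Csta2 is read from chr16:36221312-36221561 on the plus strand, Stfa1 from chr16:36276898-36277147 on the plus strand and Stfa3 from chr16:36455393-36455642 on the minus strand.
Csta2: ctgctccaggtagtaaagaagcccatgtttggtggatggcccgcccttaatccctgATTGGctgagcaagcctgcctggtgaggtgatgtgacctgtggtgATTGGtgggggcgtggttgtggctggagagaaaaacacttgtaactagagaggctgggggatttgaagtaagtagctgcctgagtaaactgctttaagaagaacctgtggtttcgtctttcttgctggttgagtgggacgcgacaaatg
Stfa1: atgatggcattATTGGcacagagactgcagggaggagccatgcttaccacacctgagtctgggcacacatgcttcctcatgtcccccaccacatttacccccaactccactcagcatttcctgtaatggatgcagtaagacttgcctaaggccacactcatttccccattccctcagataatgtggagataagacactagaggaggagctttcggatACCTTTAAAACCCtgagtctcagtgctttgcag
Stfa3: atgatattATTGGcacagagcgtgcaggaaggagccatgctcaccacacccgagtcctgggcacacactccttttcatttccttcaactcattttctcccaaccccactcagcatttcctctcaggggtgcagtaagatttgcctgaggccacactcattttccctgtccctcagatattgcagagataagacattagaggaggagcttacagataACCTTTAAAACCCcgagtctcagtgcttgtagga
Stfa1 and Stfa3 had the same base at 211 of 250 positions after global alignment, and Stfa1, Stfa2, Stfa3 and Stfa2l1 matched each other at 203 to 227. Csta2 matched the other 6 stefin A windows examined at 115 to 125 positions. Stefin A windows matched those of Cst3 or Cst7, on chromosome 2, at 108 to 132. Csta1 likewise matched the other stefin A windows at no more than 135 positions (Stfa1) and as few as 115 (Csta2), while Csta3 matched Stfa1 at 180.

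ACCTTTAAAACCC starts between 36 and 32 bases before the start site in Stfa1, Stfa2, Stfa3 and Stfa2l1, and 80 bases before it in Csta3. Of 11 genes of the stefin A cluster with a promoter in the table, 8 hold it on either strand, and the Csta2 window does not. It is held by 0.0244% of all 32851 promoters listed, and 0 of these lie outside the cluster. The run was picked from the sequences themselves, so its spread over the cluster is a description. The Csta2 window holds CCAAT on the reverse strand from 194 to 190 and again from 149 to 145 bases before the start, and Stfa1 holds it from 239 to 235 bases before. CCAAT is common, with 33.8% of promoters holding it on either strand.

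Letters read by factors that the drugs act through were searched on both strands as well. The full cAMP response element TGACGTCA (1.55% of all promoters) and the full glucocorticoid response element, which is AGAACA and TGTTCT with 3 bases between them (0.00913%), were found in 0 of the 7 stefin A windows. The C/EBP letters TTGCNNAA (9.56% of promoters) were found in Stfa1 and Csta3. AGGTCA, a sequence that several nuclear receptors bind, usually as a repeat (14.0%), was found in Csta2, Stfa2 and Csta1. None of these matches overlapped another in the windows shown. A match or its lack describes only these letters in this window.

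Stfa1, another stefin A gene, had raw intensities of 1 on day 0 and 3 on day 3, both below the 95th percentile of the empty spots and at the floor of 10 after normalization, so no fold is given. The stefin A cluster of chromosome 16 holds 12 coding genes in the gene table, from Csta1 to Stfa3, and Csta2 and Stfa1 were the only 2 of them with a probe under their current or older symbols. Among the 6 coding genes on each side of the cluster, those above the threshold on both days differed by -0.76 (Kpna1) to 0.96 (Iqcb1) on the log2 scale, and Wdr5b went from 155 to 73.5, below the threshold on day 3. The nearest on the Csta1 side, Ccdc58, differed by -0.71, and the nearest on the Stfa3 side, Casr, was below the threshold on both days.

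Cstb, which encodes stefin B, the widely made stefin that inhibits cathepsins in the cytosol and nucleus, had normalized signals of 43409 on day 0 and 35342 on day 3. The log2 difference of -0.30 lay inside the repeat-spot SD, which was 0.34 by the median feature and 0.85 when pooled. Its sign was not stable: it was -0.97 under median scaling, 0.12 with no normalization and -0.27 in the authors' deposited table. Relative to the median of all detected genes it was below 0 in all 11 settings, between -0.55 and -0.16. The detection rules and the mean of all probes could not change its own signals, because its single probe was above the threshold on both days. The raw intensities were 37187 and 40342, so Cstb gave a strong signal on both days and no difference beyond the spot error in the main setting.

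Cst3 encodes cystatin C, the main secreted inhibitor of cathepsins, which adipose tissue is known to release. Its raw intensities were 65475 on day 0 and 65465 on day 3, both at the scanner's ceiling. No fold is given, because a probe at the ceiling on both days cannot show a difference. The normalized values of 65473.5 and 59293 follow the probe's rank among the saturated gene probes, of which there were 83 on day 0 and 140 on day 3. In the mouse gene table Cst3 lies in a cluster of 10 coding genes on chromosome 2, most of them known from the testis. Of the 9 with a probe, Cst3 was the only 1 detected on either day. The other 8, among them Cst9, Cst11, Cst12 and Cst13, gave normalized signals of at most 107.5 (Cst10, on day 3).

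Cst7 encodes cystatin F, which blood cells target to lysosomes, where it restrains cathepsin C. Its normalized signal was 54 on day 0 and 114.5 on day 3, below the threshold of 122 on both days, so no fold is given. The raw intensities of 25 and 156 were above the 95th percentile of empty spots on both days. Of the 5981 genes below the threshold on both days, 14.7% had signals at least 2-fold higher on day 3 as read and 11.8% at least 2-fold lower, so a difference as read of 1.08 on the log2 scale was no rarity among dim probes. Ctsc, the gene of the protease it restrains, read 30 and 96.5 and was below the threshold as well. With no normalization, where the threshold is 118, both were detected on day 3, Cst7 at a log2 difference of 2.64 and Ctsc, from 15 to 131, at 3.13. In that setting the median of all detected genes was 0.67, and 35.7% of them were at least 2-fold higher. Relative to that median Cst7 differed by 1.97.

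The proteases that these inhibitors act on were covered by a list of 11 genes, the cysteine cathepsins and legumain, of which 10 had a probe. Of the 10, 6 were detected, all on both days, 1 was 2-fold above its day 0 signal on day 3 and 0 were 2-fold below, against 12.8% and 10.3% of all detected genes. Under median scaling 0 were higher and 2 were lower, Lgmn (-1.24) and Ctsz (-1.07), against 7.78% and 24.3% of all genes. In the main setting their median log2 difference was -0.12, against 0.03 for all detected genes. Ctsh, which encodes cathepsin H, an aminopeptidase, went from 4358 to 10957.5 and was 2.51-fold higher. Its difference of 1.33 exceeded the repeat-spot SD of 0.34 and the pooled SD of 0.85, and it was 0.66 under median scaling, below 2-fold, and 1.75 with no normalization. Ctsk, which encodes the collagen-degrading cathepsin K, was 1.75-fold higher (221.5 and 388), a difference of 0.81 against a pooled SD of 0.74.

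The other detected proteases were not 2-fold apart as measured by their brightest probe. Ctsb, encoding cathepsin B, read 57606 on day 0 and 64579 on day 3. It was saturated on day 3, so that signal may be understated. Its difference of 0.16 lay inside the repeat-spot SD of 0.34 and was -0.69 under median scaling, so no direction is given. Lgmn, which encodes the asparaginyl protease legumain that cystatin C and cystatin E/M also inhibit, was 13487.5 and 9120.5, a difference of -0.56, larger than the repeat-spot SD of 0.34 by the median feature but inside the pooled SD of 0.85. Ctsz gave -0.40 by its brighter probe and 0.17 by the other, and Ctso gave -0.56 by the detected probe and 1.03 by a probe below the threshold. The probes of Ctsl (73.5 and 86.5), a cathepsin that stefins bind tightly, and of Ctsc, Ctss and Ctsw stayed below the threshold on both days. Ctsd, an aspartic protease of the lysosome that cystatins do not inhibit, was 10479.5 and 15617.5, a difference of 0.58. Of the 8 placental cathepsin genes, which fibroblasts should lack, 0 were detected. This is a weak check, because 5981 of the 16637 named genes were also below the threshold on both days. Some of the 8, such as Cts6 (raw 18 and 116), exceeded the 95th percentile of the empty spots, and others, such as Cts8 (raw 5 and 4), did not.

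**Figure D3:**
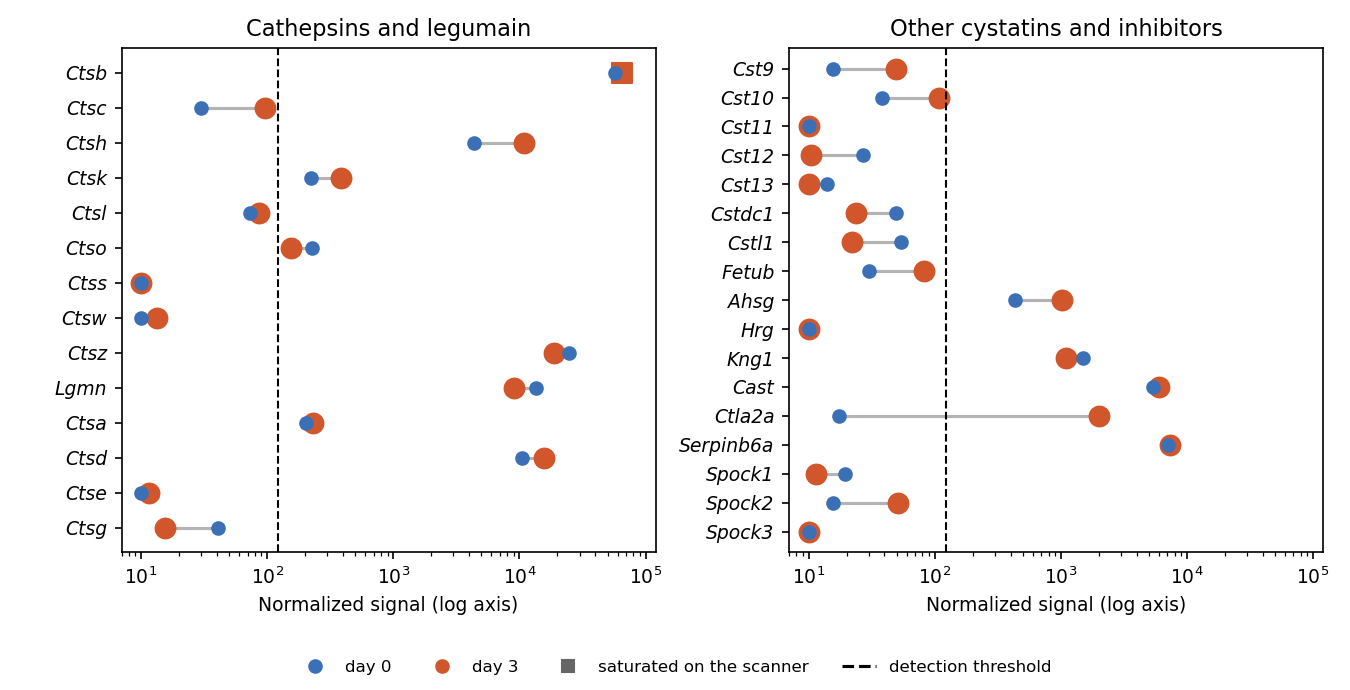
Normalized signal (x axis, log scale) on day 0 and day 3 for cathepsins and legumain (left) and for other cystatin family genes and other inhibitors (right), with the detection threshold of 122 dashed, squares for saturated signals and points at 10 standing for signals at the floor. Ctla2a spans from 17.5 to 1996, and Ctsh is the only protease above the line with a 2-fold difference.

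Another inhibitor of this protease class had the largest difference, as read, of any detected gene. Ctla2a, which encodes a homologue of the cathepsin propeptide that inhibits cathepsin L-like enzymes, went from 17.5 to 1996. The day 0 signal was below the threshold, so day 3 was at least 16.4-fold higher. In the authors' deposited table its values were 13.8 and 1899.9. Its near copy Ctla2b had no probe under that symbol, and they could not be told apart here. Of the 6 genes with probes in the list of other inhibitors, 3 were detected. Only Ctla2a was 2-fold apart, against 12.8% of all detected genes higher and 10.3% lower. Cast, which encodes the calpain inhibitor calpastatin, differed by 0.17, and Serpinb6a by 0.07.

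Among 19 names of other cystatin family genes, 11 had a probe and 2 were detected, Ahsg and Kng1. By the brightest probe 1 was 2-fold higher and 0 were lower, against 12.8% and 10.3% of all detected genes. Ahsg, which encodes fetuin A, a plasma glycoprotein made chiefly by liver, went from 431 to 1029.5. It was 2.39-fold higher, a difference of 1.26 against a pooled SD of 0.74, and the difference was 0.82, below 2-fold, under median scaling. Kng1, which encodes kininogen, gave -0.45 by its brighter probe (1508.5 and 1102.5) and -1.02 by the other (634.5 and 312). Fetub, Hrg and the genes of the Cst3 cluster with a probe, other than Cst3 itself, were below the threshold on both days.

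Stefin A genes and Cst7 are known from blood cells, so markers of such cells were read beside Csta2. Of 8 neutrophil markers with a probe, 4 were detected and their summed normalized signal, over all 8, was 1135 on day 0 and 5259.5 on day 3. Most of that sum was S100a8, a calcium-binding alarmin, which went from 590 to 4318.5, and without it the sums were 545 and 941. The other detected markers also read higher on day 3. Ltf (207.5 and 284.5) and Camp (127 and 174) differed by 0.46 and 0.45, inside the pooled SD of 0.69. Retnlg went from 67.5, below the threshold, to 195.5, at least 1.60-fold higher. S100a9, the partner of S100a8, gave 14 and 10. Mpo (34.5 and 89.5, by its brighter probe), Ngp (30 and 76) and Cxcr2 (64.5 and 111.5, by its brighter probe) stayed below the threshold on both days. Of 10 macrophage markers, 5 were detected with sums of 17649.5 and 43916.5. Most of this was Cd14, a receptor for bacterial lipid that was 2.48-fold higher, and the sums without it were 1613.5 and 4218. Itgam, an integrin of myeloid cells, was 5.05-fold higher (703.5 and 3556) and made up most of the day 3 sum without Cd14. Cd68 (198.5 and 268, by its brighter probe) and Mpeg1 (248 and 234) differed by 0.43 and -0.08. Csf1r, the receptor for the macrophage growth factor, was at least 2.21-fold lower by its brighter probe (269.5 and 51.5). A second Csf1r probe, with raw intensities of 0 and 14, stayed below the threshold on both days. By the mean of all probes Csf1r was not detected. Under median scaling the log2 difference of Cd14 was 0.65, below 2-fold, against 1.31 in the main setting. The probes of Ptprc, the marker of all white blood cells, had raw intensities of -2 and 3 and of 2 and 11, and Adgre1 and Lyz2 were below the threshold.

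Markers of other cells that make stefins or cystatin E/M were also read. Of 10 keratinocyte and epithelial markers, 3 were detected, and their sums were 1534.5 on day 0 and 1037.5 on day 3. Krt14 was 2.57-fold higher (150.5 and 387.5) and Krt10 was 2.32-fold lower, while Krt5, Krt1, Ivl, Lor, Epcam and Cdh1 were below the threshold on both days. Of 8 adipocyte markers 1 was detected, Lpl, which was at least 6.99-fold higher and saturated on day 3, and the sums without it were 92 and 313. Of 4 endothelial markers, Pecam1 was 3.00-fold higher and Kdr at least 1.38-fold lower, with Cdh5 and Tek below the threshold. The part of these marker signals in the difference of Csta2 was not tested.

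**Figure D4:**
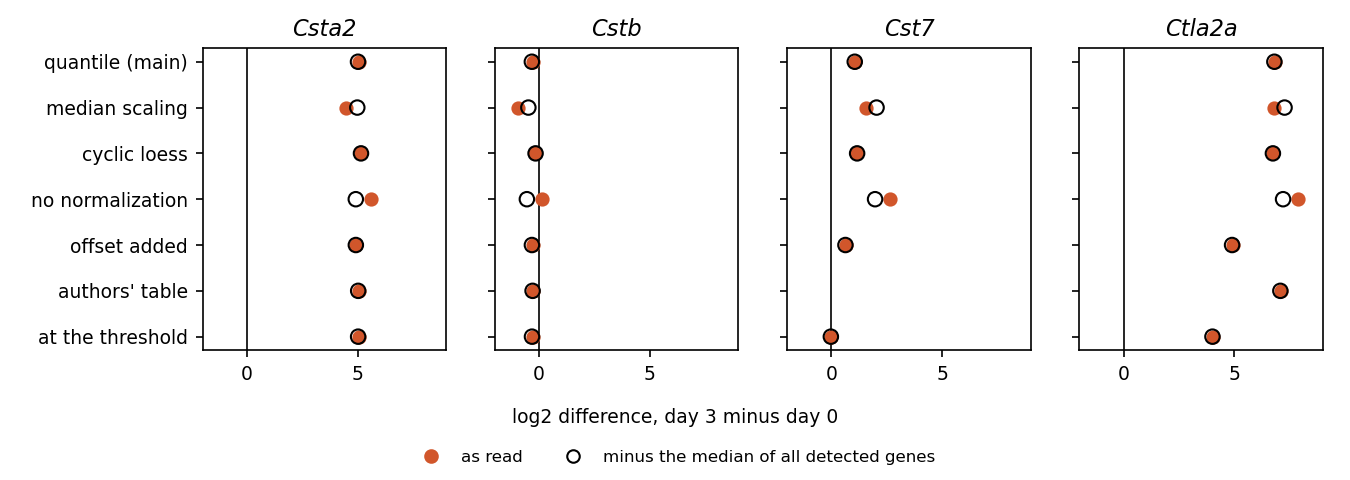
Log2 difference, day 3 minus day 0 (x axis), of Csta2, Cstb, Cst7 and Ctla2a under 7 settings, as read (filled) and after subtraction of the median of all detected genes in that setting (open); Cst7 had no value in the authors' table. Csta2 stays between 4.50 and 5.59 as read, Cstb lies on both sides of 0, Cst7 runs from 0 to 2.64 and Ctla2a from 4.03 to 7.87.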

How the data were processed

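Signals were read from the deposited per-sample tables, which hold 1 linear intensity for each of 39200 spots. Total RNA was amplified and labelled with Cy5 by Phalanx, per the labels' protocols. The labels name no scanner, image software or background method. Empty spots had a median of 0 on both days, so background appeared to be removed already.

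Quantile normalization (limma 3.58.1, R 4.3.3) put both arrays on a common scale over 29922 gene probes, signals under 10 were set to 10, and log2 differences were taken, day 3 minus day 0. Raw intensities of 65000 or more were treated as saturated. Symbols came from the platform annotation and were updated through a RefSeq gene table of GRCm38.p6. The brightest probe stood for its gene. A fold with a signal below the threshold or saturated on 1 day is a lower bound. The normalization and the log2 difference were tested on simulated data. The rules for detection, saturation, the brightest probe and lower bounds were not part of that test. With 1 sample per day there was no test, and the number of arrays limits the precision.

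The members and gene lists were chosen with earlier results of these data known. Named genes are the members, the listed cystatins, inhibitors and cathepsins, the markers, and the 3 genes nearest to the member with the largest difference, while Dio2, the shared upstream run and the genes flanking the stefin cluster were chosen after their values were seen. Alternatives were other normalizations, an offset of 50, the authors' table, other detection rules and the mean of all probes. The authors' deposited table of normalized intensity values covers 11482 of the gene probes. Upstream sequences were aligned with Biopython 1.88.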

Additional observations from a re-analysis of the deposited data

How the results depend on the processing

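Each day was 1 sample, so no replicate could be left out and no paired analysis was possible because each group holds a single sample. The number of 2-fold inhibitors was 1 (Csta2, higher) and stayed 1 under cyclic loess, the offset, the authors' table, the filter on both days, signals set to the threshold and the mean of all probes. It was 2 under median scaling, where Cst3 counted as lower (-1.09) although saturated on both days, and 2 with no normalization, with the threshold from empty spots and with no detection filter, where Cst7 counted as higher. The 2-fold count of the cathepsins and legumain was 1 in the main setting, 2 under median scaling (0 higher, 2 lower), 3 with no normalization, and 2 both with the threshold from empty spots and with no detection filter. Over all genes 2454 were 2-fold apart (1361 higher, 1093 lower). The count was 3415 (829 higher, 2586 lower) under median scaling, 4255 (3940 higher, 315 lower) with no normalization, 1509 in the authors' table, which has fewer genes, and 4035 both with the empty-spot threshold and with no filter, which admit more genes. Shares of detected genes, higher and lower, were 12.8% and 10.3% in the main setting and 7.78% and 24.3% under median scaling. They were 35.7% and 2.85% with no normalization and 9.91% and 8.46% in the authors' table. With the empty-spot threshold they were 14.3% and 11.5%, and with no filter 13.5% and 10.8%. Csta2 stayed 2-fold higher in all 11 settings, but the detection rules and the mean of all probes could not change its signals. Ctla2a also stayed 2-fold higher wherever it was counted. The filter on both days leaves Ctla2a out, because its day 0 signal is below the threshold.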
